A study of Mus musculus with 33 samples.

Results

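The comparison described here set differentiating mouse embryonic stem (ES) cells labelled RepB against WT ES cells on days 5, 6 and 7. It used 6 of the 33 samples of the series, 1 polyA RNA-seq library per genotype and day, so 3 libraries a side, chosen by their labelled genotype and day. All cells came from a CAST/Ei x 129/Sv/Jae cross. WT was labelled wildtype, and RepB is read here, from the series title, as a change in Repeat B of Xist. The labels did not describe the edit, name the allele that carries it or say how many clones were used. Per the labels' protocols the cells grew on irradiated feeder fibroblasts with LIF, were freed of feeders and were left to form embryoid bodies without LIF for 4 days. They were then plated on gelatin, so that all 6 libraries came from embryoid bodies within days of plating. Days 0, 8 and 10 (6 more RNA libraries) served only to ask whether the difference of days 5 to 7 was present before or after them. The 21 other samples were not analysed here.

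Female mammalian cells silence 1 X chromosome, and Xist is the noncoding RNA that coats the chosen chromosome and starts its silencing. Repeat B is a C-rich tandem repeat of Xist that binds hnRNPK and brings in the Polycomb complexes PRC1 and PRC2, which ubiquitinate histone H2A and methylate histone H3. ES cells keep both X chromosomes active. As they leave the naive state they turn down naive pluripotency factors, pass through a formative, epiblast-like state and take up germ layer programmes, and X-inactivation sets in over the same days. Some X-linked genes, Dusp9 and Klhl13 among them, are known to slow that exit while both X chromosomes are active.

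Library totals were 17773138, 14409430 and 11238856 counts in WT and 5297648, 6977752 and 4428785 counts in RepB on days 5, 6 and 7, so each WT library was deeper than the RepB library of its day. Depth and genotype therefore cannot be told apart. Values below are in CPM, each count scaled by the total of its library, always in the order of days 5, 6 and 7. The main axis of variation over these libraries held 66.9% of the variance and ordered them by day in both lines. Same-day libraries of the 2 lines deviated from their line's mean in the same way (r across genes 0.834, 0.538 and 0.843), and the day was the block in every test. No label says that the days came from separate cultures. In the test of total levels, each p thus weighs a difference against its spread over 3 days of 1 time course per genotype. That spread has 2 residual degrees of freedom per gene, and edgeR adds 10.3 from the spread shared by all genes. A small p is therefore not a measure of steadiness over the 3 days alone. Whether a difference would recur in a separate culture or clone was not tested. Pluripotency factors were present throughout, with Pou5f1, which encodes Oct4, at 1001, 817 and 277 CPM in WT and 1194, 873 and 331 CPM in RepB. None of 8 Y-linked genes had enough counts to be tested. In bulk RNA, fewer cells of a type and less RNA per cell cannot be told apart.

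Over days 5 to 7, naive pluripotency and germline genes were higher in RepB, several formative and neural genes were lower, and the X chromosome held an excess of genes that were higher. Of 13368 genes tested, 1205 (9.01%) passed an adjusted p of 0.05, of which 529 (3.96%) were higher and 676 (5.06%) lower in RepB, and the daily ratios of 1198 of them all pointed one way. On the X chromosome 123 of 496 genes (24.8%) were higher and 27 (5.44%) lower. On the autosomes 406 of 12872 (3.15%) were higher and 649 (5.04%) lower. The plot of calls by chromosome shows that no autosome came near the X. The median log2 RepB/WT was 0.20 on the X and -0.01 on the autosomes, whose own medians ranged from -0.05 (chromosome 15) to 0.03 (chromosome 18).

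**Figure D1:**
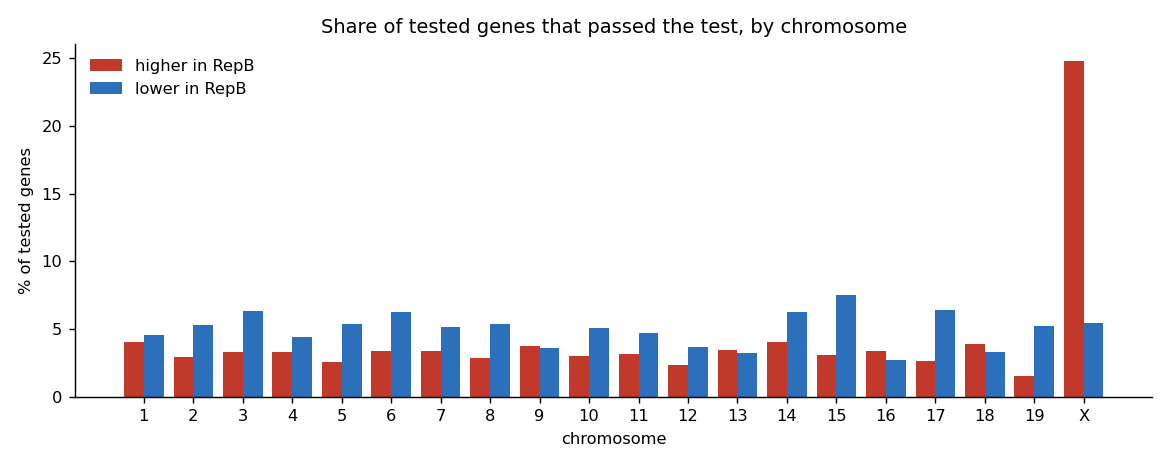
Bars give the percent of tested genes of each chromosome that were higher (red) or lower (blue) in RepB over days 5 to 7 in edgeR's quasi-likelihood test at an adjusted p of 0.05. The X chromosome stands out for higher genes (24.8%), while its share of lower genes (5.44%) lies within the range of the autosomes.

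The number of calls depended on the days. Leaving out day 6 left 62 higher and 81 lower genes and leaving out day 5 gave 921 and 1043, and 132 of the 1205 genes passed in the same direction whichever day was left out. Exon length moved with the calls. Median summed exon length was 2402 bases for higher genes, 4653.5 bases for lower genes and 2938 bases for genes that did not pass. The Spearman correlation of the log2 ratio with exon length, across genes of the same pair of libraries, was -0.07 on day 5, -0.28 on day 6 and -0.20 on day 7, against -0.04 on day 0. It was 0.42 on day 8 and 0.09 on day 10, of the opposite sign. With the length trend of each day removed, 478 genes were higher and 483 lower, and 877 of the 1205 genes kept their call.

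Naive pluripotency genes, which hold ES cells in the ground state, were the clearest group. Of 29 tested members 21 were higher in RepB and 1 was lower, against 3.96% and 5.06% of all genes, and the list's median log2 difference was 0.57 against -0.00 for all genes tested. Zfp42 (Rex1, a zinc finger marker of the naive state) stood at 153, 96.7 and 45.7 CPM in WT and 251, 204 and 87.8 CPM in RepB. RepB was above WT on each day (log2 0.92 ± 0.08, adjusted p = 0.000322). Nanog, a homeobox factor of the naive network, stood at 354, 311 and 112 CPM in WT and 499, 425 and 160.1 CPM in RepB, again higher on every day (log2 0.50 ± 0.07, adjusted p = 0.00242). Esrrb, an orphan nuclear receptor that sustains self-renewal, stood at 182, 89 and 55.9 CPM in WT and 229, 163 and 97.3 CPM in RepB (log2 0.67 ± 0.10, adjusted p = 0.00226). RepB was above WT on each day, and its day 7 level of Esrrb was above the day 6 level of WT.

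Further naive factors differed in the same direction. Klf2, a Krüppel-like factor of the naive network, stood at 116, 68.8 and 46.4 CPM in WT and 199.5, 105 and 73.4 CPM in RepB (log2 0.71 ± 0.08, adjusted p = 0.000699). Tdh, the threonine dehydrogenase that mouse ES cells rely on, stood at 113, 61.3 and 32.1 CPM in WT and 184, 132 and 57.6 CPM in RepB (log2 0.90 ± 0.09, adjusted p = 0.000443). Fbxo15, an F-box gene used as an ES cell reporter, stood at 61.7, 35.8 and 18.1 CPM in WT and 91.7, 76.5 and 41.3 CPM in RepB (log2 0.94 ± 0.11, adjusted p = 0.000908). All of these were lower on day 7 than on day 5 in both lines and higher in RepB on each day. Lefty1, Lefty2, Gdf3 and Nr0b1, described below with their pathways, Nr5a2 (log2 0.74), Tfcp2l1 (0.55), Prdm14 (0.95), Tcl1 (0.71), Fgf4 (0.54), Pecam1 (0.78), Dppa4 (0.79) and Spp1 (0.49) also passed.

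The developmental pluripotency-associated gene Dppa5a, an RNA-binding KH-domain gene, had a difference that varied by day. Its level was 228, 106 and 27.1 CPM in WT and 259.9, 262 and 136 CPM in RepB (log2 1.20 ± 0.25, adjusted p = 0.0139), so the lines were close on day 5 and far apart on day 7. Dppa2, which primes developmental promoters together with Dppa4, stood at 17.2, 11 and 4.18 CPM in WT and 38.3, 22.1 and 8.81 CPM in RepB (log2 1.10 ± 0.14, adjusted p = 0.000949). Dppa3 (Stella), which guards maternal DNA methylation, stood at 47.3, 22.2 and 7.92 CPM in WT and 69.5, 62.1 and 15.8 CPM in RepB (log2 1.01 ± 0.15, adjusted p = 0.00245). Tbx3 did not pass (log2 0.31 ± 0.13, adjusted p = 0.141), and its level was higher on day 7 than on day 5 in both lines (4.11, 58.4 and 244 CPM in WT and 8.31, 78.4 and 249 CPM in RepB). The 1 list member that was lower was Sall1, a zinc finger gene that is also a developmental regulator, at 404, 377 and 370.4 CPM in WT and 288, 258 and 245 CPM in RepB (log2 -0.53 ± 0.07, adjusted p = 0.00199). The naive list's median log2 ratio was 0.38 on day 5, 0.78 on day 6 and 0.73 on day 7, and 0.06 on day 0. Its median change from day 5 to day 7 was -1.66 log2 units in WT and -1.06 in RepB. Its median exon length was 2126 bases. With the length trend removed, 20 members were higher and 1 lower, and without day 6 the number higher was 10.

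**Figure D2:**
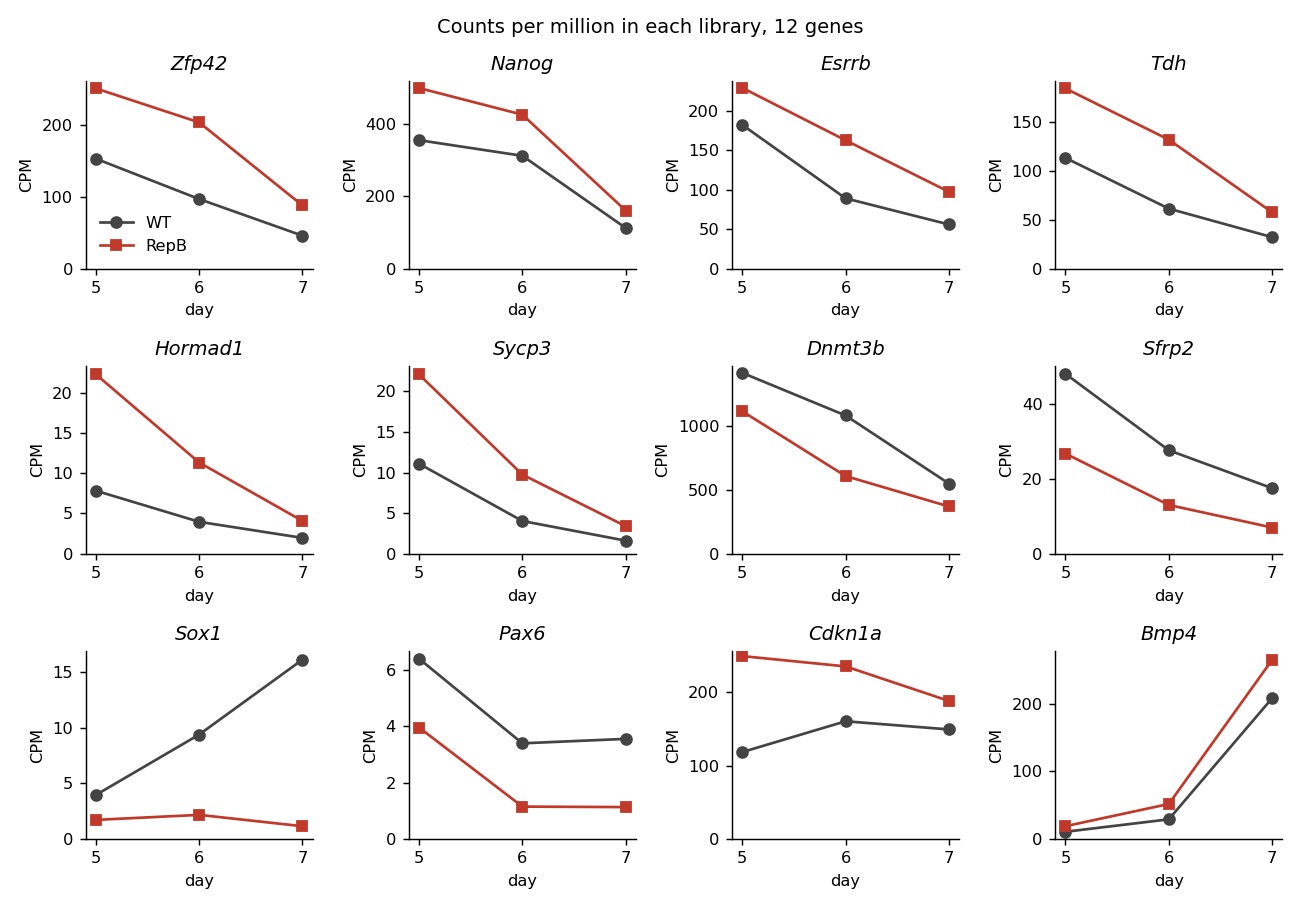
Each panel plots the CPM of 1 gene in each of the 6 libraries against day, WT in grey circles and RepB in red squares, with 1 library per point and no error bar. Naive (Zfp42, Nanog, Esrrb, Tdh), germline (Hormad1, Sycp3) and signalling genes (Cdkn1a, Bmp4) lie above WT in RepB on each day, and Dnmt3b, Sfrp2, Sox1 and Pax6 lie below.

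Core pluripotency factors, shared by naive and later pluripotent states, differed less. Of 13 tested members, 2 were higher and none lower, against 3.96% and 5.06% of all genes, with a median of 0.10. Sox2, the partner of Oct4, stood at 387, 244 and 150.5 CPM in WT and 562, 324 and 173 CPM in RepB (log2 0.40 ± 0.08, adjusted p = 0.014). Dnmt3l, the catalytically inactive cofactor of de novo DNA methylation, stood at 137, 74.8 and 46.2 CPM in WT and 190.1, 158 and 102 CPM in RepB (log2 0.90 ± 0.11, adjusted p = 0.000928). For Pou5f1 the difference did not pass (log2 0.22 ± 0.08, adjusted p = 0.102).

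Genes of the formative epiblast, the state that follows the naive one, had a median below WT. Of 16 tested members 4 were lower and 1 was higher, against 5.06% and 3.96% of all genes, with a median of -0.17. By day the median was -0.00079, -0.27 and -0.42, so it showed no shift on day 5, when 8 of 16 members lay above 0. Dnmt3b, a de novo DNA methyltransferase switched on in the epiblast, stood at 1416, 1082 and 549 CPM in WT and 1115, 608 and 369 CPM in RepB (log2 -0.57 ± 0.10, adjusted p = 0.00509). Sox3, an X-linked SOXB1 factor of epiblast and neural progenitors, stood at 69.4, 48.5 and 21.7 CPM in WT and 30.01, 19.8 and 9.26 CPM in RepB (log2 -1.23 ± 0.11, adjusted p = 0.000322), the lowest RepB/WT ratio of the list. Sfrp2, a secreted Wnt modulator, stood at 48.2, 27.7 and 17.5 CPM in WT and 26.8, 13 and 7.0 CPM in RepB (log2 -1.01 ± 0.13, adjusted p = 0.00115). RepB was below WT on each day for all of these, as it was for Zic5 (log2 -0.46 ± 0.11, adjusted p = 0.0215). Zic2, a zinc finger factor of the epiblast, was above WT on day 5 and below it on days 6 and 7 (355, 416 and 172 CPM in WT and 409, 291 and 112 CPM in RepB) and did not pass (log2 -0.28 ± 0.13, adjusted p = 0.207). Nodal, the TGF-beta ligand of the epiblast, was the member that was higher, at 90.5, 119.9 and 52.5 CPM in WT and 139, 154 and 54.6 CPM in RepB (log2 0.39 ± 0.10, adjusted p = 0.0358). With the length trend removed the 4 lower members still passed and Nodal did not. Without day 5 the number lower was 9, and without day 6 it was 2.

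Neural ectoderm genes that passed were all lower in RepB. Of 15 tested members, 4 were lower and none higher, against 5.06% and 3.96% of all genes, with a median of -0.28. The median log2 ratio was 0.03 on day 5, with 8 of 15 members above 0, and -0.34 and -0.52 on days 6 and 7. Sox1, the earliest marker of committed neural progenitors, was highest on day 7 in WT and lower on every day in RepB, at 3.94, 9.37 and 16.1 CPM in WT and 1.7, 2.15 and 1.13 CPM in RepB (log2 -2.38 ± 0.34, adjusted p = 0.0021). The day 7 RepB level of Sox1 rests on few counts, given a floor of 3 counts that equals 0.677 CPM there. Pax6, a homeobox factor of neural and eye progenitors, stood at 6.41, 3.4 and 3.56 CPM in WT and 3.96, 1.15 and 1.13 CPM in RepB (log2 -1.12 ± 0.30, adjusted p = 0.0376). Map2 (log2 -0.61), a neuronal microtubule protein, and Elavl3 (-0.55), a neuronal RNA-binding protein, were the others. Sox11, a neural SOXC factor, did not pass (log2 -0.23 ± 0.09, adjusted p = 0.156). Over the whole list the summed level was 642, 699 and 634 CPM in WT and 609.9, 648 and 487 CPM in RepB. The list's median exon length was 4275 bases, and with the length trend removed Sox1 and Map2 passed while Pax6 and Elavl3 did not. Without day 6 only Sox1 passed, and without day 7 the number was 2.

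The 12 largest falls over all genes with an average log2 CPM of 2 or more included Sox1 and other genes with known roles in neurons. Ntrk2, the receptor of brain-derived neurotrophic factor, stood at 12, 5.83 and 1.51 CPM in WT and 3.21, 2.01 and 0.226 CPM in RepB (log2 -1.77 ± 0.27, adjusted p = 0.00259). Gfra1, the GDNF co-receptor, stood at 12.4, 3.75 and 0.979 CPM in WT and 4.53, 1.29 and 0 CPM in RepB (log2 -1.54 ± 0.30, adjusted p = 0.0101). Rtn4rl2, a Nogo receptor homologue, stood at 8.27, 6.04 and 6.05 CPM in WT and 2.83, 1.15 and 2.03 CPM in RepB (log2 -1.79 ± 0.27, adjusted p = 0.00247). Grip2, a scaffold of glutamate receptors (log2 -1.57), Cadps2, a factor of dense-core vesicle release (-1.61), and Srrm3, a splicing factor of neuronal microexons (-1.68), were lower too. So were Vat1l (-1.56), Slc35d3 (-1.44) and Rgl3 (-1.41). These genes were chosen by size of change, not as a list, and were not tested as a group. Hist1h2ao (6.47, 5.2 and 5.52 CPM in WT and 0.189, 0 and 0 CPM in RepB), a histone gene, and H2-Bl (log2 -1.47), a class I MHC gene, completed the 12, but both share sequence with close relatives and their counts are uncertain.

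Germline genes, which ES cells express at low levels and silence as they differentiate, were higher in RepB. Of 28 tested autosomal members of a list of 45, 14 were higher and none lower, against 3.96% and 5.06% of all genes. The median was 0.62, and 24 of the 28 lay above 0. Hormad1, a protein of the meiotic chromosome axis, was second in size among the 12 largest rises, at 7.82, 3.96 and 1.96 CPM in WT and 22.3, 11.3 and 4.06 CPM in RepB (log2 1.46 ± 0.18, adjusted p = 0.000955). Sycp3, a component of the synaptonemal complex, stood at 11.1, 4.03 and 1.6 CPM in WT and 22.1, 9.75 and 3.39 CPM in RepB (log2 1.12 ± 0.18, adjusted p = 0.00332). Sohlh2, a helix-loop-helix factor of germ cells, stood at 20.1, 11.3 and 5.52 CPM in WT and 30.6, 31.8 and 18.3 CPM in RepB (log2 1.21 ± 0.18, adjusted p = 0.00262). RepB was above WT on days 5, 6 and 7 for each of the 3. At day 0 Hormad1 stood at 17.7 CPM (WT) and 13.8 CPM (RepB) and Sycp3 at 14 CPM (WT) and 11.9 CPM (RepB). Sohlh2 was then at 110.01 CPM (WT) and 103 CPM (RepB).

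Meiotic cohesin was represented by Smc1b at 38.4, 21.7 and 15.7 CPM in WT and 67.4, 55.5 and 22.8 CPM in RepB (log2 0.96 ± 0.13, adjusted p = 0.00182). Tdrd12, a Tudor-domain factor of the piRNA pathway, stood at 25.4, 10.3 and 5.25 CPM in WT and 35.5, 27.2 and 16.7 CPM in RepB (log2 1.09 ± 0.19, adjusted p = 0.00511). The others that passed were Dazl (log2 1.20), Mos (1.25), Mael (1.15), Tex14 (0.70), Tex15 (0.58), Tex19.1 (0.79), Syce2 (0.37), Dnd1 (0.62) and Prdm14, which the naive list also holds. Adjusted p for these was between 0.00332 (Prdm14) and 0.0496 (Dnd1). Summed over the list, levels were 457, 306 and 209.5 CPM in WT and 597, 501 and 290.4 CPM in RepB. With the length trend removed 9 members passed, without day 6 there were 3 and without day 7 there were 7.

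Mga, the subunit of a noncanonical PRC1 complex that is known to hold germline genes silent in ES cells through E-boxes, did not pass (log2 0.12 ± 0.08, adjusted p = 0.348), and its levels were 397, 356 and 331 CPM in WT and 460.4, 383 and 332 CPM in RepB. Because 14 of the germline members were higher together, the 250 bases upstream of their RefSeq transcription starts (GRCm38.p6) were searched for the E-box CACGTG, which reads the same on both strands. Of the 45 listed genes, 38 matched the RefSeq promoter table by symbol. The E-box was present upstream of at least 1 start in 15 of these (39.5%), against 6.86% of the 27025 genes of the table. By outcome it was present in 4 of 10 matched genes that were higher (Hormad1, Mael, Sycp3 and Syce2), and in 6 of 12 that were tested and did not pass. These are shares of 40% and 50% of small groups. A match is a description of these letters and not a bound site. Upstream windows of 3 of the largest rises are shown 5′ to 3′, ending at the base before the start, with each E-box in capitals. Hormad1 (chr3:95559427-95559676, plus strand) holds 2, at -57 and -20 relative to the start. Sycp3 (chr10:88459337-88459586, plus strand) also holds 2, at -64 and -43, and Sohlh2 (chr3:55181794-55182043, plus strand) holds none in this window.
Hormad1: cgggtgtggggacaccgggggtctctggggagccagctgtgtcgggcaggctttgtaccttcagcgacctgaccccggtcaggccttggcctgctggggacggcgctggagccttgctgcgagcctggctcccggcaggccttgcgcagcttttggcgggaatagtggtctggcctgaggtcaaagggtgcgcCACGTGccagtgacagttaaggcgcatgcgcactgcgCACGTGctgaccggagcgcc
Sycp3: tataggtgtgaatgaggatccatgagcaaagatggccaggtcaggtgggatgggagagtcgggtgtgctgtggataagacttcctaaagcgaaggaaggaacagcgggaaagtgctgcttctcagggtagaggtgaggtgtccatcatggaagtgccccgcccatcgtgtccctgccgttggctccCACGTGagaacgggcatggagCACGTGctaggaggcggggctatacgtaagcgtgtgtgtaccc
Sohlh2: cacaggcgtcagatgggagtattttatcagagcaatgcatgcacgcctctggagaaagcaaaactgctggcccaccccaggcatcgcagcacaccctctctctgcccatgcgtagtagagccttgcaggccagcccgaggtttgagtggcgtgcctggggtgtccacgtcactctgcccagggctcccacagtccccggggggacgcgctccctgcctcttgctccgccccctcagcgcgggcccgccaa

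X-linked germline genes were also higher in RepB where they passed. Of 11 tested members 5 were higher and none lower, against 24.8% of X-linked genes, with a median of 0.80. Rhox6 and Rhox9, homeobox genes of a reproductive cluster whose members share sequence, stood at 16.5, 11.9 and 5.61 CPM in WT and 28.3, 21.5 and 8.81 CPM in RepB (log2 0.80 ± 0.14, adjusted p = 0.00509) and 19.4, 13.7 and 5.43 CPM in WT and 31.1, 28.8 and 7.45 CPM in RepB (log2 0.81 ± 0.14, adjusted p = 0.00622). Usp26, a testis ubiquitin protease, stood at 14.4, 6.38 and 4.54 CPM in WT and 18.1, 15.8 and 11.3 CPM in RepB (log2 0.92 ± 0.20, adjusted p = 0.0148). Tex11 (log2 1.27) and Tktl1 (1.65) passed at levels of a few CPM. Without day 6 none of the 5 passed, without day 7 there were 2, and with the length trend removed there were 3.

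Part of the TGF-beta family of signals was higher in RepB. Of 15 tested genes of Nodal and BMP signalling, 5 were higher and none lower, against 3.96% and 5.06% of all genes. Their median was 0.22. Besides Nodal, these were its feedback inhibitors Lefty1 (log2 0.50 ± 0.09, adjusted p = 0.00796) and Lefty2, the ligand Gdf3 (log2 0.55 ± 0.10, adjusted p = 0.00663) and Bmp4. Lefty2 stood at 191, 169 and 56.1 CPM in WT and 302, 311 and 85.1 CPM in RepB (log2 0.74 ± 0.08, adjusted p = 0.000609). Bmp4, the ligand that patterns posterior epiblast, was highest on day 7 in both lines and stood at 10.4, 28.9 and 208 CPM in WT and 18.7, 51.6 and 265 CPM in RepB (log2 0.63 ± 0.11, adjusted p = 0.00536). Of the 5, 4 are shared with the naive or formative lists, so they are not a separate group of genes. Without day 6 the number was 1. Notum, the secreted Wnt deacylase, was the only member of 14 tested Wnt targets that passed, at 4.73, 3.75 and 10.2 CPM in WT and 16.8, 9.89 and 16.7 CPM in RepB (log2 1.31 ± 0.21, adjusted p = 0.00371).

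Genes of the primitive streak and mesoderm, the tissue of gastrulation, had a median difference of opposite sign on days 5 and 7. Of 24 tested members 1 was higher and 1 lower, against 3.96% and 5.06% of all genes. The list's median log2 ratio was 0.50 on day 5, 0.09 on day 6 and -0.19 on day 7, with 20, 18 and 7 members above 0. T (Brachyury), the T-box factor of the streak, stood at 46.1, 637 and 287 CPM in WT and 124, 682 and 175 CPM in RepB. Its level on day 5 was higher in RepB and on day 7 lower, and the mean difference did not pass (log2 0.24 ± 0.27, adjusted p = 0.612). Without day 5 it was lower in RepB (log2 -0.27, adjusted p = 0.016). Eomes, a T-box factor of mesendoderm, followed the same order, at 106, 507 and 385 CPM in WT and 241, 529 and 342 CPM in RepB (log2 0.36 ± 0.19, adjusted p = 0.262). Hand1, a helix-loop-helix factor of lateral and extraembryonic mesoderm, was higher on each day, at 1.35, 18.9 and 469 CPM in WT and 1.89, 31.1 and 672 CPM in RepB (log2 0.59 ± 0.10, adjusted p = 0.00401). Lhx1, a LIM homeobox factor of the anterior streak, was lower on each day, at 4.61, 185 and 132 CPM in WT and 3.78, 135 and 76.8 CPM in RepB (log2 -0.58 ± 0.10, adjusted p = 0.0054). Neither Hand1 nor Lhx1 passed without day 6 or without day 7, and Hand1 did not pass in a fit of all 12 RNA libraries.

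Endoderm genes that passed differed in both directions, but of these only Lrp2 kept its call across most settings. Of 10 tested endoderm transcription factors, whose median was -0.16, 1 was lower, Sox17, a driver of definitive endoderm, at 1.18, 26.4 and 33.8 CPM in WT and 0.566, 14.8 and 27.5 CPM in RepB (log2 -0.58 ± 0.17, adjusted p = 0.0476). Among 11 visceral endoderm markers, whose median was 0.30, 2 were higher and 2 lower. Of all genes tested, 3.96% were higher and 5.06% lower. The summed level of the visceral endoderm markers was 1674, 1475 and 3438 CPM in WT and 1384, 1559 and 4809 CPM in RepB. It was lower in RepB on day 5 and higher on days 6 and 7. Lrp2 (megalin), an endocytic receptor of visceral endoderm, was at 559.8, 559.6 and 406 CPM in WT and 248, 278 and 242 CPM in RepB (log2 -0.97 ± 0.09, adjusted p = 0.000322), below WT on each day. Dab2, an adaptor of the same endocytic pathway, was lower on each day (log2 -0.59 ± 0.17, adjusted p = 0.0459), while Apoe, an apolipoprotein, was higher (log2 0.30 ± 0.08, adjusted p = 0.0381). The imprinted RNA H19 was higher in the test (log2 0.42 ± 0.12, adjusted p = 0.0446) but below WT on day 5 (287, 342 and 2349 CPM in WT and 270.5, 524 and 3717 CPM in RepB). Sox17, Dab2, Apoe and H19 did not pass without day 6 or with the length trend removed. They also did not pass after thinning to the smallest total or in a fit of all 12 RNA libraries. Lrp2 passed in each of these.

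Trophoblast markers had a median of 0.38, with 3 of 14 tested members higher and none lower, against 3.96% and 5.06% of all genes. Without day 6 none passed, without day 5 there were 6, and in the 12-library fit there was 1. Tfap2c, an AP-2 factor that trophoblast shares with naive and germ cells, stood at 57, 48 and 34.7 CPM in WT and 70.8, 68.8 and 48.5 CPM in RepB (log2 0.45 ± 0.09, adjusted p = 0.00896), and Krt7, a simple epithelial keratin, at 5.96, 8.54 and 13.6 CPM in WT and 6.23, 15.9 and 22.1 CPM in RepB (log2 0.63 ± 0.17, adjusted p = 0.0407). The related keratins Krt8 (log2 0.27 ± 0.10, adjusted p = 0.122) and Krt18 (log2 0.16 ± 0.14, adjusted p = 0.486) did not pass and were lower in RepB on day 5 and higher on days 6 and 7. The summed level of the list was 716, 1510 and 2662 CPM in WT and 749.8, 1949.8 and 3309 CPM in RepB, higher in RepB on each day. Blood and endothelial markers had 3 of 20 members higher and none lower, against 3.96% and 5.06% of all genes. These were Pecam1, which naive cells also express, Gata2 (log2 0.57 ± 0.14, adjusted p = 0.0296) and Eng, a TGF-beta co-receptor, at 42.3, 27.7 and 23 CPM in WT and 79.7, 45.6 and 36.8 CPM in RepB (log2 0.80 ± 0.10, adjusted p = 0.000955). Fibroblast and feeder markers had 2 of 25 higher and 1 lower, against the same 3.96% and 5.06% of all genes. Their summed level was 1909.6, 4977 and 9654 CPM in WT and 1810.2, 5049 and 9572 CPM in RepB. These sums rest on the most abundant members, such as Fn1, which did not pass (log2 -0.15 ± 0.08, adjusted p = 0.248). The median log2 ratio was -0.24, 0.27 and 0.10 on days 5, 6 and 7, with 5, 17 and 14 of 25 members above 0. The part of any such cells in the differences of other genes was not tested.

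**Figure D3:**
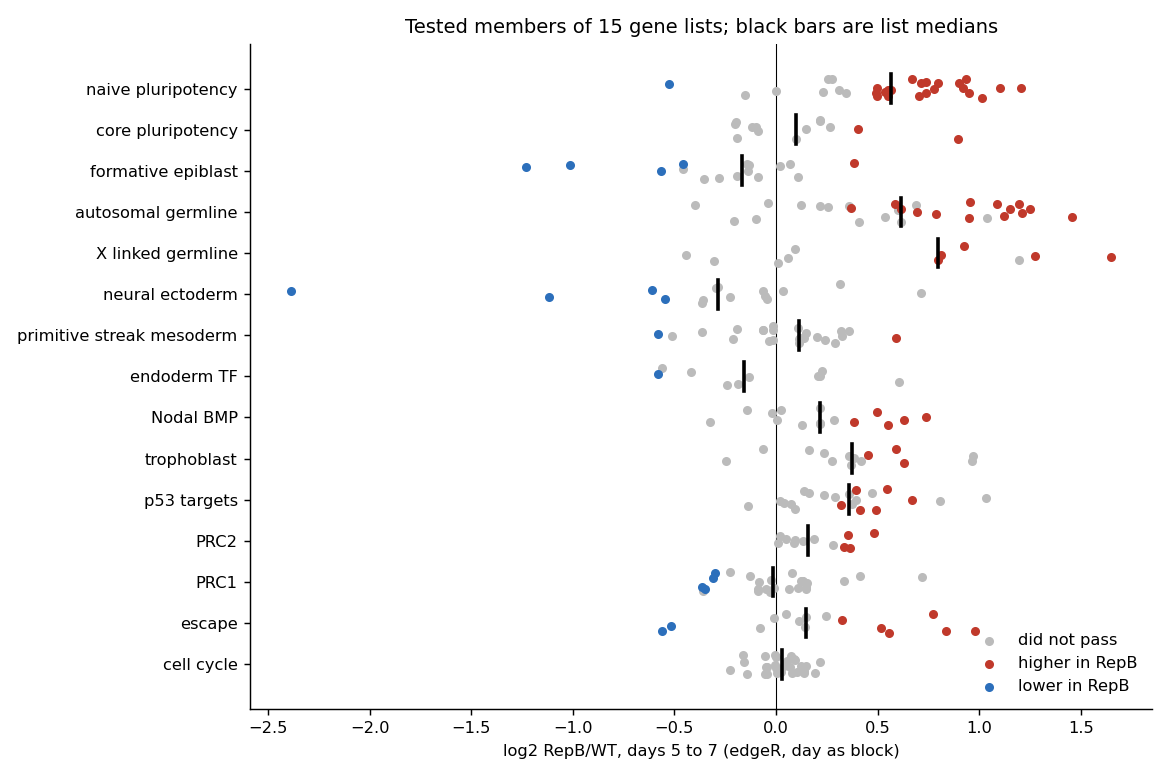
Each point is the log2 RepB/WT of 1 tested gene from edgeR with day as block, red where it was higher and blue where it was lower at an adjusted p of 0.05, for 15 gene lists (vertical jitter has no meaning). Naive and germline medians (black bars) lie at 0.57 to 0.80, the formative and neural medians lie at -0.17 and -0.28, and no cell cycle gene passed.

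Targets of p53, the tumour suppressor that answers stress and DNA damage, lay mostly above WT by small differences. Of 21 tested members 6 were higher and none lower, against 3.96% and 5.06% of all genes. The median was 0.36, and 20 of 21 lay above 0. Cdkn1a, the p21 inhibitor of cyclin-dependent kinases, stood at 118, 161 and 149 CPM in WT and 249.5, 235 and 188 CPM in RepB (log2 0.67 ± 0.12, adjusted p = 0.00619), and Mdm2, the ubiquitin ligase of p53, stood at 141, 151 and 121 CPM in WT and 243, 171 and 141 CPM in RepB (log2 0.42 ± 0.11, adjusted p = 0.0407). The ratio of both was largest on day 5. Eda2r (log2 0.55 ± 0.09, adjusted p = 0.00451), Perp (log2 0.49 ± 0.12, adjusted p = 0.0264), Trp53inp1 (log2 0.39) and Btg2 (0.32) also passed. The list's median log2 ratio was 0.48, 0.19 and 0.15 on days 5, 6 and 7, and -0.29 at day 0, where 6 of 21 members lay above 0. None of 30 tested cell cycle genes passed, with a median of 0.03 and a range of -0.22 to 0.22. The proliferation gene Mki67, for example, stood at 1165, 1092 and 1207 CPM in WT and 1223, 1129 and 1210.5 CPM in RepB. With the length trend removed 4 of the p53 targets passed, and without day 6 there were 3.

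Polycomb genes encode the complexes that Repeat B is known to bring in. Of 12 tested PRC2 genes 4 were higher and none lower, against 3.96% and 5.06% of all genes, with a median of 0.16. Eed, the H3K27me3 reader of PRC2, stood at 113, 116 and 87.3 CPM in WT and 154, 146 and 105 CPM in RepB (log2 0.36 ± 0.08, adjusted p = 0.0158), and Suz12, its scaffold, at 215, 197 and 168 CPM in WT and 282, 246 and 198 CPM in RepB (log2 0.33 ± 0.08, adjusted p = 0.019). Mtf2 (log2 0.35 ± 0.09, adjusted p = 0.0281) and Phf19 (log2 0.48 ± 0.12, adjusted p = 0.0262), the Polycomb-like subunits that help PRC2 bind CpG islands, were higher too. Their ratios shrank by day, as did the list's median, from 0.28 on day 5 to 0.15 and 0.04. Of 26 tested PRC1 genes 4 were lower and none higher, against 5.06% and 3.96% of all genes. The median of the PRC1 list was -0.02, with 12 members above 0, so the list as a whole showed no shift. Phc1, a subunit of canonical PRC1, stood at 1454, 985 and 519.5 CPM in WT and 1158, 649.8 and 450.01 CPM in RepB (log2 -0.37 ± 0.09, adjusted p = 0.0255), and Kdm2b, which leads noncanonical PRC1 to CpG islands, at 277, 247 and 232 CPM in WT and 238, 183 and 187 CPM in RepB (log2 -0.31 ± 0.08, adjusted p = 0.0322). Cbx2 (log2 -0.30) and Bcorl1 (-0.35) were the others. Without day 6 none of these 8 genes passed. Of the 4 PRC1 genes, 2 passed with the length trend removed and 1 without day 7. The number of PRC1 genes lower was 1 with DESeq2, 1 after thinning to the smallest total and 0 in a fit of all 12 RNA libraries. The number of PRC2 genes higher was 3, 3 and 2 in the same settings.

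Among genes of DNA methylation, Dnmt3l and Tet2 (log2 0.43 ± 0.10, adjusted p = 0.0192), a methylcytosine oxidase, were higher. Dnmt3b and Tet3 (log2 -0.52 ± 0.10, adjusted p = 0.00815) were lower. Of these, only Dnmt3l passed without day 6. Tet2 also did not pass with DESeq2, after thinning to the smallest total or in a fit of all 12 RNA libraries. Of 28 tested imprinted genes 3 were higher and 2 lower, against 3.96% and 5.06% of all genes. The number higher was 0 without day 6 and 0 after thinning. Cdkn1c, an imprinted inhibitor of cyclin-dependent kinases, stood at 3.66, 3.75 and 2.76 CPM in WT and 7.93, 7.88 and 6.77 CPM in RepB (log2 1.16 ± 0.21, adjusted p = 0.00622), Phlda2 at 6.25, 7.36 and 17.1 CPM in WT and 8.49, 15.3 and 23.9 CPM in RepB (log2 0.68 ± 0.16, adjusted p = 0.023) and Nnat at 119.8, 181 and 161 CPM in WT and 86.6, 134 and 104 CPM in RepB (log2 -0.50 ± 0.08, adjusted p = 0.00332). Among proteins known to work with Xist, Hnrnpu, the matrix protein that anchors it, did not pass (log2 0.13 ± 0.09, adjusted p = 0.394). Glycolysis genes had 1 of 18 higher and 1 lower, near the shares of all genes (3.96% and 5.06%). Their median ratio went from -0.33 on day 5 to -0.06 and 0.16, with 1, 7 and 14 members above 0.

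The remaining large rises were of other kinds. Fam25c, the first by size, stood at 5.4, 1.94 and 0.712 CPM in WT and 9.44, 7.74 and 3.39 CPM in RepB (log2 1.46 ± 0.28, adjusted p = 0.00961) and did not pass without day 6. The zinc finger genes Zfp936 (log2 1.16 ± 0.15, adjusted p = 0.00126) and Zfp534 (log2 1.13 ± 0.17, adjusted p = 0.00245) and the forkhead gene Foxr1 (log2 1.16 ± 0.22, adjusted p = 0.00815) followed, and all 3 were higher on each day. Mir703 also passed (log2 1.22), but a polyA library counts its locus and not the mature miRNA.

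X-linked genes as a class were 1.16-fold higher in RepB than autosomal genes. The median log2 RepB/WT of 496 expressed X-linked genes less that of autosomal genes was 0.19, 0.22 and 0.22 on days 5, 6 and 7 (0.21 ± 0.02, SD, n = 3 days). It was above 0 on 3 of 3 days, and the smallest p an exact two-sided sign-flip test allows over 3 days is 0.25. The 8 largest X-linked rises, taken with the same floor on expression as above, came from varied gene families. C77370, a poorly described gene, stood at 74.7, 55.2 and 24.7 CPM in WT and 166, 98.7 and 49.2 CPM in RepB (log2 1.01 ± 0.09, adjusted p = 0.000322). Pnma5, a retroelement-derived paraneoplastic antigen gene, stood at 51.9, 27.2 and 14.6 CPM in WT and 74.4, 58.6 and 30.5 CPM in RepB (log2 0.88 ± 0.12, adjusted p = 0.00142), and Trap1a, a tumour rejection antigen gene, at 81.9, 36.5 and 23.5 CPM in WT and 112, 90.6 and 45.2 CPM in RepB (log2 0.90 ± 0.13, adjusted p = 0.00208). Mcf2, a guanine nucleotide exchange factor (log2 0.86), 1810030O07Rik (0.98), Usp26, Bgn (0.84) and Rhox9 completed them. RepB was above WT on each of the 3 days for all of these but Bgn, which was lower in RepB on day 5 (3.04, 8.81 and 29.4 CPM in WT and 2.08, 22.5 and 49.9 CPM in RepB).

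X-linked genes tied to pluripotency included both known brakes on differentiation. Of 8 tested members 4 were higher and 1, Sox3, was lower, against 24.8% and 5.44% of X-linked genes. Dusp9, a phosphatase of ERK, stood at 141, 135 and 274 CPM in WT and 144, 219.6 and 465 CPM in RepB (log2 0.52 ± 0.11, adjusted p = 0.0158), nearly level on day 5 and apart on days 6 and 7. Klhl13, a ubiquitin ligase adaptor, stood at 397, 217 and 135 CPM in WT and 469, 387 and 223 CPM in RepB (log2 0.61 ± 0.10, adjusted p = 0.00394). Tfe3, a bHLH factor that holds ES cells naive (log2 0.38 ± 0.07, adjusted p = 0.00966), and Nr0b1 (Dax1), an orphan nuclear receptor of the naive network (log2 0.57 ± 0.12, adjusted p = 0.0159), were also higher. Without day 6 none of the 4 higher members passed, and without day 7 there were 2, while Sox3 passed in both.

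Genes listed as escaping X-inactivation in other cells had 6 of 15 higher and 2 lower, against 24.8% and 5.44% of X-linked genes. Utp14a, a ribosome biogenesis gene, stood at 219, 209 and 151 CPM in WT and 418, 368 and 214 CPM in RepB (log2 0.77 ± 0.09, adjusted p = 0.000754), and Usp9x, a deubiquitinase, at 409.9, 331 and 351 CPM in WT and 524, 458 and 565 CPM in RepB (log2 0.52 ± 0.08, adjusted p = 0.00325). Ddx3x (log2 0.32 ± 0.08, adjusted p = 0.0247), Pbdc1 (log2 0.56), 1810030O07Rik and Bgn were the other higher members. Without day 6 the number higher was 3, and without day 7 it was 4. The demethylases Kdm5c (log2 0.05 ± 0.07, adjusted p = 0.733) and Kdm6a (log2 0.15 ± 0.08, adjusted p = 0.26) did not pass. Firre, a noncoding RNA locus, stood at 114, 83.6 and 87.2 CPM in WT and 65.1, 56.9 and 75 CPM in RepB (log2 -0.52 ± 0.10, adjusted p = 0.00976) and was lower on each day, as was Mid1 (log2 -0.56 ± 0.13, adjusted p = 0.0215).

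The 27 X-linked genes that were lower were led by Chrdl1 (log2 -2.33) and Klhl4 (-1.72), both at under 2 CPM in WT on day 5, and Gabra3 (-1.39), a GABA receptor subunit. Irs4, an insulin receptor substrate, followed at 32.5, 30.6 and 20.2 CPM in WT and 13.8, 9.32 and 9.48 CPM in RepB (log2 -1.35 ± 0.15, adjusted p = 0.000609). Dcaf12l1 stood at 37.3, 20.9 and 12.3 CPM in WT and 14.5, 8.6 and 5.87 CPM in RepB (log2 -1.25 ± 0.14, adjusted p = 0.000637) and Col4a6, a collagen chain of basement membranes, at 5.18, 13.7 and 40.6 CPM in WT and 1.7, 4.3 and 21.7 CPM in RepB (log2 -1.24 ± 0.19, adjusted p = 0.00262). These were named after their values were seen.

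The total level of Xist showed no difference that passed. It stood at 1284, 1330.2 and 1374 CPM in WT and 1486, 1200.2 and 1608 CPM in RepB, above WT on days 5 and 7 and below it on day 6 (log2 0.11 ± 0.09, adjusted p = 0.487). Since its count sums all exons, it is no test of whether Repeat B was edited. Its antisense partner Tsix stood at 27.5, 21.7 and 15.7 CPM in WT and 17.4, 13.6 and 8.81 CPM in RepB and was lower (log2 -0.69 ± 0.13, adjusted p = 0.00819), but the 2 genes overlap and no source says whether counting used the strand, although the library kit was directional. Without day 6 Tsix did not pass. Jpx (log2 -0.08 ± 0.31, adjusted p = 0.915), Ftx (log2 0.14 ± 0.10, adjusted p = 0.426) and Rlim (log2 0.13 ± 0.07, adjusted p = 0.297), other regulators of Xist, did not pass.

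The alleles showed on which X chromosome the median X-linked difference lay, which need not hold for each gene. The authors also deposited separate cas and mus counts, taken here to mean the CAST/Ei and the 129/Sv/Jae allele, which made up 25.5% to 25.9% of these libraries' counts. Xist came almost wholly from the mus allele in WT, and the mus share of X-linked genes declined from day to day there. X-linked mus counts, scaled to library totals, had a median RepB/WT log2 ratio of 0.69, 0.97 and 1.14 over 310 informative genes (0.93 ± 0.22, SD, n = 3 days, 1.91-fold). The cas counts of the same genes were at -0.14, -0.09 and -0.14 (-0.12 ± 0.03). The 2977 autosomal genes with both alleles at day 0 had medians of -0.04 ± 0.03 for mus and -0.04 ± 0.03 for cas. Each of these means had the same sign on 3 of 3 days, where the exact sign-flip p cannot go below 0.25.

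In WT the share of informative X-linked genes with at least 90% of their allelic counts from cas was 16.2%, 33.5% and 52.6% on days 5, 6 and 7. In RepB it was 6.80%, 6.25% and 11%. At the other end, genes at or below a 65% cas share were 16.9%, 9.03% and 8.12% in WT and 55.1%, 43.1% and 37.3% in RepB. At day 0 genes at or below 65% made up 88.7% in WT and 91.1% in RepB. The middle 50% of genes spanned 83.7% to 95.1% in WT on day 7 and 60.5% to 82.4% in RepB, so the ranges did not overlap, and the RepB median of day 7 (70.4%) was below the WT median of day 5 (78.7%). From day 5 to day 7 the median gene gained 8.70 points of cas share in WT and 4.55 points in RepB. WT gained more in 184 of 279 genes with a share in every library. These are single libraries, so the 2 gains were compared over genes only, with no test.

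**Figure D4:**
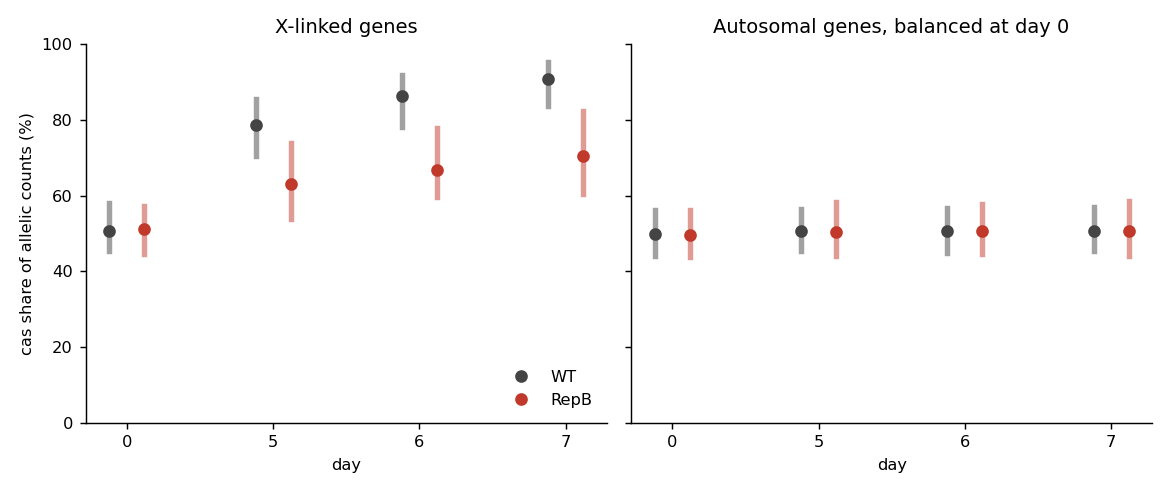
Points give the median and bars the middle 50% of genes of the percent of allelic counts from the cas allele, by day, for WT (grey) and RepB (red), with 1 library per point. X-linked genes (left) start near 50% at day 0 and reach 90.7% in WT and 70.4% in RepB on day 7, while autosomal genes (right) stay near 50% in every library.

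Gene by gene, an edgeR test of cas against mus counts found the cas share lower in RepB for 114 of 310 X-linked genes (36.8%) and higher for 1 (0.323%), Xist. On the autosomes 11 of 9721 genes (0.113%) were lower and 20 (0.206%) higher. Of the 310 X-linked genes, 287 had a lower odds of cas in RepB whether or not they passed. Thinned to the smallest allelic total, the RepB/WT difference passed for 29 X-linked genes. Without day 6 there were 70. The smallest p-values of this allele test, such as the adjusted p of 1.97e-124 for Flna, cannot come from 2 residual degrees of freedom alone. They rest also on spread pooled over genes and on read depth, so they do not measure steadiness over days.

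Flna, the actin cross-linker filamin A, is a deeply covered example, with at least 2262 allelic counts in each library. Its cas share was 90.1%, 93.2% and 95.7% in WT and 61.1%, 61.3% and 64.4% in RepB (log2 odds ratio -3.06 ± 0.13, adjusted p = 1.97e-124), and no RepB value came within 25 points of a WT value. Foxo4, a forkhead factor close to Xist, had 88.5%, 94.8% and 96.1% in WT and 66.7%, 65.3% and 72% in RepB (log2 odds ratio -2.78 ± 0.40, adjusted p = 1.34e-09). Amot, the angiomotin scaffold of Hippo signalling, had 94%, 97% and 98.6% in WT and 76.8%, 86% and 87.7% in RepB (log2 odds ratio -2.74 ± 0.22, adjusted p = 4.46e-31). Taz, which encodes the cardiolipin enzyme tafazzin, had 72.8%, 87% and 100% in WT and 46.2%, 50% and 54.2% in RepB (log2 odds ratio -2.76 ± 0.61, adjusted p = 0.000696), so its RepB libraries lay near equal use of both alleles. L1cam, a neural adhesion molecule, had 96.8%, 94.8% and 100% in WT and 84.2%, 73.1% and 89.2% in RepB (log2 odds ratio -3.23 ± 0.83, adjusted p = 0.0083). Chst7, Bgn and Arhgap6 completed the 8 largest, but each had fewer than 10 allelic counts in at least 1 library. Xist went the other way, with a cas share of 1.89%, 3.17% and 2.57% in WT and 18.6%, 17.1% and 13.6% in RepB (log2 odds ratio 2.93 ± 0.14, adjusted p = 2.06e-92), and its 95% exact binomial intervals, which cover counting error only, did not overlap between lines (highest WT bound 3.68%, lowest RepB bound 12.1%).

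Passing in total level and passing in the allele test were set side by side. Of those 114 genes, 49 were also higher in total and 64 did not pass. Of the 123 X-linked genes that were higher in total, 105 could be tested for alleles. Of these 49 had a lower cas share and 56 did not pass, and the other 18 had too few allelic counts. Over all 310 X-linked genes tested for alleles, 105 were higher in total and 114 (36.8%) had a lower cas share. Of the largest X-linked rises named above, Bgn had a lower cas share and Usp26 was not tested. C77370 (cas share 55.3% in WT and 57.2% in RepB), Mcf2 (56.7% and 59.6%) and Rhox9 (78.9% and 77.2%) did not pass. Neither did Pnma5 (62.6% and 52.6%), 1810030O07Rik (66.1% and 39.5%) or Trap1a. Of the higher pluripotency genes, Dusp9 and Tfe3 had a lower cas share, while Klhl13 (84.6% and 76.5%) and Nr0b1 (60.6% and 74.6%) did not pass. The median over the higher genes of their own cas share differences was -19.1 points, and it pools genes that passed the allele test with genes that did not. The library medians of all informative X-linked genes differed by a mean of -18.5 points, which is a different measure. A gene that did not pass is not shown to lack the difference.

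The median allelic difference was below 0 in each of 8 intervals along the X chromosome and was uneven. Over genes more than 80 Mb from Xist on the centromeric side (50 genes), the median cas share was 84.2% in WT and 61.9% in RepB, a median difference of -20.1 points. From 60 to 80 Mb it was -6.56 points over only 8 genes, and from 40 to 60 Mb (31 genes) -17.4 points. Between 20 and 40 Mb on that side (45 genes) it was -18.8 points, and within 20 Mb (36 genes) -12.7 points. On the telomeric side it was -9.31 points within 20 Mb (21 genes), -8.45 points from 20 to 40 Mb (34 genes) and -14.7 points beyond 40 Mb (54 genes). Calls in total level followed that order in part. On the centromeric side 30 of 80 tested genes were higher beyond 80 Mb and 13 of 35 from 60 to 80 Mb. From 40 to 60 Mb 6 of 54 were higher, from 20 to 40 Mb 30 of 79 and within 20 Mb 12 of 59. On the telomeric side 5 of 35 were higher within 20 Mb, 7 of 70 from 20 to 40 Mb and 20 of 84 beyond 40 Mb. The centromeric intervals from 60 to 80 Mb and from 40 to 60 Mb departed from the order of the allelic differences. The intervals were compared as medians with no test, and genes of 1 library are not independent.

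**Figure D5:**
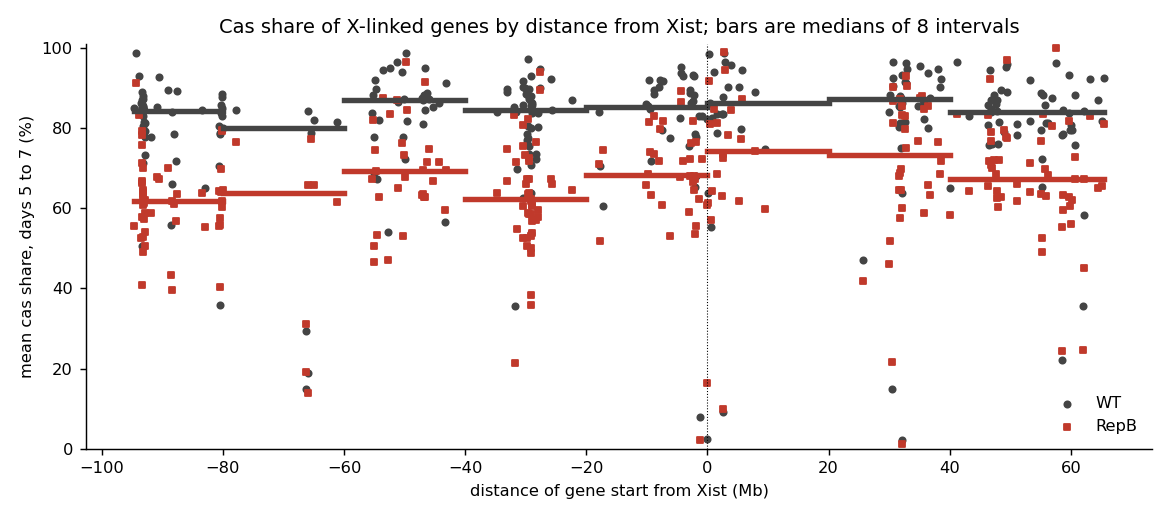
Each point is 1 X-linked gene with a cas share in all 6 libraries, plotted by the distance of its start from Xist (Mb, negative towards the centromere) and its mean cas share over days 5 to 7, grey for WT and red for RepB, with horizontal bars at the median of each of 8 intervals. WT medians lie at 80.2% to 87.3% and RepB medians at 61.9% to 74.2%, closest together from 0 to 40 Mb beyond Xist.

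Whether the difference of days 5 to 7 was there before or after was tested in a fit of all 12 RNA libraries. At day 0, before differentiation, 2 genes were higher and 29 lower in RepB (0.0132% and 0.191% of 15179 genes), with 1 library per line assumed to vary like those of the other days. The same fit gave 287 (1.89%) and 358 (2.36%) for days 5 to 7, and 116 (0.764%) and 56 (0.369%) for days 8 and 10. The difference of days 5 to 7 itself departed from that of day 0 for 35 genes, 19 upward (0.125%) and 16 downward (0.105%), and 2206 had an unadjusted p under 0.05. Sox3 (log2 change of the difference -1.65) and Xist (1.90) were among them. From days 5 to 7 to days 8 and 10 it changed for 4 genes upward (0.0264%) and 0 downward in edgeR (limma-voom 1 gene, 2433 genes at an unadjusted p under 0.05). With DESeq2 size factors the latter was 50 genes and without a filter on low counts 771. In the allele test 5 of 9915 genes (0.0504%) had a higher odds ratio later and 9 (0.0908%) a lower one.

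The lists showed how the windows compared in value. Values of days 5 to 7 are from their own fit and the others from the 12-library fit. The naive median was 0.13 at day 0, 0.57 over days 5 to 7 and 0.72 over days 8 and 10, where 8 members were higher and none lower. The neural median went from 0.06 to -0.28 and -1.10, with 5 members lower on days 8 and 10. The autosomal germline median was 0.02, 0.62 and 0.49, and none passed on days 8 and 10, when RepB libraries were shallowest (3594551 and 3745822 counts). The p53 median was -0.22, 0.36 and 0.07. The cardiac median was 0.06, 0.19 and -0.83, with 1 member higher and 1 lower of 15 over days 5 to 7 and 7 lower later, and the blood and endothelial median was 0.00, 0.24 and 0.87. Comparisons of the lists between windows were not tested, nor was the part of the exon length trend, which had the opposite sign on days 8 and 10.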

How the data were processed

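The authors deposited whole-number counts per gene, without normalization, as total counts and as counts of the cas and mus alleles, plus the exon length and start of each gene (mm9). Per the submitters' processing notes Novoalign, TopHat, SAMtools, bedtools and featureCounts were used. Versions, roles and the strand setting are not given in the sources used here, and 6 count columns of a day with no matching sample were not used.

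edgeR 4.0.16 under R 4.3.3 (TMM, filterByExpr by genotype, quasi-likelihood F test, Benjamini-Hochberg over all genes tested, threshold 0.05) was run on 6 libraries with day and genotype as terms. The 12-library fit had a genotype effect per window. Errors of log2 values are SE. Same-day pairing comes from the labels and was checked by correlation. The allele test used cas and mus columns with library, allele, allele by day and allele by genotype, where allelic counts averaged 20 or more. Shares needed 10 counts per library. The pseudocount was 0.5 CPM. A 0 allows 3 counts, 0.169 to 0.677 CPM. limma 3.58.1 and DESeq2 1.42.0 served as alternatives, and the fits were tested on simulated data. Named genes were the 12 largest rises and falls (log2 CPM of at least 2, named symbol, same sign daily), called list members with up to 3 others, 5 regulators, the largest allelic and window differences, and a few chosen after their values were seen. A few results are not reported here. The members and lists were chosen with earlier results of these data known.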

Additional observations from a re-analysis of the deposited data

Results flagged for a closer look

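For 18 results the RepB/WT difference changed between windows by a test of the change itself in edgeR. From days 5 to 7 to days 8 and 10, the log2 difference rose by 2.56 for Irs4, 1.19 for Pcdh1, a protocadherin, and 1.09 for Syne2, a nuclear envelope spectrin. All 3 were lower in RepB over days 5 to 7 (log2 -1.35, -0.86 and -0.75), and Irs4 was higher later (1.20). Hist1h2an rose by 12.67, but WT held 743, 1 and 370 counts on days 5, 6 and 7 while RepB held 1 to 3. On day 8 RepB held 146 counts and WT 0, and on day 10 RepB held 1 and WT 3, so the later side rests on 1 library. This fitted value is therefore no bound, and histone copies share sequence.

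From day 0 to days 5 to 7 the log2 difference changed by 8.30 for Gm5088, 3.16 for Rpl36a, 2.97 for Acat3, 2.00 for Atp6v0a4 and 1.90 for Xist. The first 3 rest on day 0, where WT held 502, 436 and 377 counts and RepB 3, 61 and 29. At day 0 the level of Xist was 393 CPM for WT and 108 CPM for RepB. The change was -1.69 for Jph4, -1.65 for Sox3, -1.62 for Tenm4, -1.60 for Myc and -1.59 for Sall2. Jph4, Sox3, Tenm4 and Sall2 were lower in RepB over days 5 to 7, and Myc did not pass (log2 -0.15 ± 0.08, adjusted p = 0.253). Day 0 has 1 library per line.

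In the allele test the log2 odds ratio of cas in RepB against WT moved from days 5 to 7 to days 8 and 10 by -1.87 for Usp11, -1.47 for Dusp9, -1.43 for Xist and -1.56 for Atrx, of 306 X-linked genes tested (1.31% lower, 0% higher). Over days 5 to 7 the Atrx share was 78.9%, 83.0% and 89.0% in WT and 61.1%, 64.6% and 63.4% in RepB. Leaving out 1 early day left 1 to 8 such genes.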

How the results depend on the processing

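Of all settings, dropping the day block changed the calls most: with genotype alone (no replicate block) 0 genes were higher, 0 lower and 0 X-linked genes higher in edgeR, with 671 genes at an unadjusted p under 0.05. The paired allele test kept its side without the allele by day term (113 genes). The counts of higher and lower genes were 831 and 1231 without a low-count filter, 282 and 296 with DESeq2, 248 and 263 after thinning to the smallest total, and 287 and 358 in the 12-library fit. Thinning also took X-linked higher genes to 77 and genes with a lower cas share to 29, fewer counts being tested. The other scalings and limma-voom stayed within 1.5 times of the counts given. Leaving out a day gave 62 to 921 higher, 81 to 1043 lower, 24 to 144 X-linked higher and 70 to 110 allelic calls, with 1 residual degree of freedom left.

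The window tests were the least stable. The change to days 8 and 10 (4 genes) became 50 with DESeq2 size factors, 771 without a filter, 1 with limma-voom and 3 to 20 without a day. The change from day 0 (35) became 513 without a filter, 188 with limma-voom and 1 to 134 without a day. Allelic changes (4) ranged from 1 to 8. X-linked output was 0.185 with a pseudocount of 2 CPM and 0.206 to 0.222 without a day, and the cas share difference was -14.7 points when pooled over counts and -19.9 to -17.6 points without a day.

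Among named genes, 4 values turned sign: over the fits without 1 day, Jpx ranged from -0.45 to 0.34 (without day 7), Eomes from -0.041 (without day 5) to 0.62, T from -0.27 (without day 5) to 0.72, and Krt18 from -0.012 (without day 6) to 0.44. The causes were not tested. RepB depth limits low genes, since 3 counts are up to 0.677 CPM.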

Other observations

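A cluster of zinc finger genes on chromosome 4 (mm9, gene starts 145207049 to 147128083) was higher in RepB. It was picked after values were seen, so its counts are a description. Of 18 genes in the interval 14 were tested, 10 were higher and none was lower, with a median of 1.07. 2610305D13Rik stood at 38.9, 21.4 and 12.9 CPM in WT and 80.04, 54.2 and 21.9 CPM in RepB (log2 1.10 ± 0.12, adjusted p = 0.000601), with 122 CPM (WT) and 100.6 CPM (RepB) at day 0. Gm13247 stood at 18.8, 11.7 and 5.96 CPM in WT and 37.6, 31.7 and 13.1 CPM in RepB (log2 1.21 ± 0.13, adjusted p = 0.000609) and Gm13154 at 25.1, 14.7 and 7.65 CPM in WT and 49.1, 34.1 and 15.1 CPM in RepB (log2 1.08 ± 0.12, adjusted p = 0.000609). Zfp534 and Zfp600 (log2 1.05 ± 0.19, adjusted p = 0.00657) belong to the same interval. The genes named here were lower on day 7 than on day 5 in both lines. For 2 of them the difference had changed from day 0 (Gm13247, log2 1.48, and 2610305D13Rik, 1.30), and none passed on days 8 and 10. These genes are near-identical copies, so how reads were split among them is uncertain.

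Neighbouring Armcx genes, X-linked armadillo-repeat genes chosen after their values were seen, were lower in RepB for 4 of 6 tested members, while Armcx3 (log2 -0.51, adjusted p = 0.268) and Armcx5 (log2 0.32, adjusted p = 0.123) did not pass. Armcx4 stood at 115, 115 and 93.2 CPM in WT and 81.2, 66.8 and 74.7 CPM in RepB (log2 -0.53 ± 0.10, adjusted p = 0.00708), Armcx2 at 115, 135 and 162 CPM in WT and 76.1, 101.2 and 135 CPM in RepB (log2 -0.41 ± 0.08, adjusted p = 0.0103), Armcx1 at 47.9, 49.8 and 44.8 CPM in WT and 34.4, 38.1 and 36.1 CPM in RepB (log2 -0.38 ± 0.09, adjusted p = 0.0273) and Armcx6 at 8.44, 9.16 and 5.16 CPM in WT and 4.91, 4.16 and 4.29 CPM in RepB (log2 -0.77 ± 0.22, adjusted p = 0.0476). Their WT cas shares were above 90% for Armcx4 (92.6%), Armcx2 (96.5%) and Armcx1 (90.6%).

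The 31 autosomal genes with an allelic difference included ribosomal protein genes such as Rpl35 (cas share 11.9% in WT and 0.652% in RepB) and Rpl27 (76.9% and 51.1%). Many have relatives or processed copies elsewhere in the genome, and how reads were assigned among these was not stated.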
